A study of Homo sapiens with 9 samples.

Results

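The genes described here encode enzymes of the pentose phosphate pathway and of cytosolic NADPH production in A549, an established line of human lung adenocarcinoma cells. The members were chosen by name, with earlier results of these data known. They are 9 genes, PGLS, PGD, H6PD, RPIA, RPE, TKT, TALDO1, ME1 and IDH1. Every probe set that the array annotation assigns to exactly 1 gene was taken for each. All 9 genes were measured, by 26 of the 41091 single-gene probe sets, among 19775 genes in all. No filter on low values was applied, so all 26 probe sets entered the fit.

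Cells were transfected with 25 nM of an siRNA against Nrf2 (Nrf2 siRNA; the gene is NFE2L2), with a non-targeting control, called NS siRNA, at the same dose, or with the reagent and no siRNA (mock). There were 3 biological replicates of each, on 1 array apiece. The 3 groups shared the Lipofectamine 2000 reagent, the culture medium and a harvest 96 h after transfection. The series set out to find genes that Nrf2 regulates in these cells. It holds 1 cell line, 1 Nrf2 siRNA and no rescue, so loss of Nrf2 and any off-target effect of that siRNA cannot be told apart.

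The pentose phosphate pathway branches off glycolysis at glucose 6-phosphate. Its oxidative arm yields NADPH, the reductant for glutathione and thioredoxin recycling and for lipid synthesis, and ends in ribulose 5-phosphate. Its reversible non-oxidative arm exchanges pentose phosphates for the glycolytic intermediates fructose 6-phosphate and glyceraldehyde 3-phosphate. NRF2 is a transcription factor that binds antioxidant response elements with small MAF partners and is held back by KEAP1. A549 cells carry a defective KEAP1 and are known for a constantly active NRF2.

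Expression values were log2 levels made with RMA, in which a difference of 1 is a factor of 2. Array medians lay between 7.51 and 7.57, and Pearson's r between arrays within a group was 0.9979 to 0.9987 (across probe sets, which are not independent replicates). The number of arrays limits the precision, and the p-values measure only the spread between these 3 cultures a group. The brightest NFE2L2 probe set (201146_at) lay between 10.12 and 10.32 in Nrf2 siRNA, against 12.03 to 12.15 in NS siRNA and 11.92 to 12.07 in mock, which is 27.9% of the level in NS siRNA. The dimmer 1567013_at was at 45.2% of NS siRNA, and 1567015_at, at 92.9%, was not called (adjusted p = 0.172). By the brightest probe set of each gene, all 6 epithelial markers examined exceeded the array-wide median of 7.54. These were the keratins KRT7, KRT8, KRT18 and KRT19, EPCAM and CDH1. The same held for 6 of 8 markers of other cell types, so this level does not tell cell types apart. After Nrf2 siRNA 3 of the epithelial markers had a higher probe set than in NS siRNA and 1 a lower one. KRT19 was furthest apart (1.15 against NS siRNA and 1.95 against mock). Of 8 markers of leukocytes, endothelium, fibroblasts and hepatocytes, CD14 alone was called higher after Nrf2 siRNA (0.96 against NS siRNA and 0.99 against mock), while 3 dim probe sets, of DCN, PECAM1 and COL1A2, were called lower than NS siRNA and none lower than mock. The summed linear level of those 8 genes was 2078 to 2235 in Nrf2 siRNA, 2010 to 2014 in NS siRNA and 1850 to 1983 in mock. No marker was at 0, since RMA gives every probe set a level, and the part of other cell types in the results was not tested. Levels of different probe sets are not comparable with each other, and only differences between groups are compared below.

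After Nrf2 siRNA, TALDO1 and all 3 TKT probe sets were called lower against both controls. So were 2 of 3 probe sets of ME1, 1 of 3 of PGD and 1 of 4 of RPE. PGLS was called higher against both in 2 of 4 probe sets, and IDH1 passed no test of Nrf2 siRNA against either control. RPIA was lower than in NS siRNA but higher than in mock. Against NS siRNA, 15 of 26 member probe sets were lower and 3 higher at an adjusted p below 0.05 (limma, Benjamini-Hochberg over all 41091 probe sets), where 21.5% of all probe sets were called lower, 20.2% higher and 41.7% either way. Against mock, 8 were lower and 3 higher, where 13.3% and 15.2% of all were, 28.6% together. Against the mean of both controls 12 were lower and 2 higher, where 18.8% and 19.6% of all were, 38.4% together. Among the brightest 10% of all probe sets, 36.4% were lower than in NS siRNA, and 7 of the 11 member probe sets found there were. Falls of 1.5-fold or more were called for 7 member probe sets of 4 genes against each control, where 2.64% of all probe sets fell that far against NS siRNA, 1.53% against mock and 1.69% against the mean of both. Rises of that size were called for 0 members, where 6.01%, 2.94% and 3.97% of all probe sets had one. The median difference over the 26 probe sets was -0.16 against NS siRNA and -0.08 against mock (log2), and over all probe sets -0.04 and -0.01. Both comparisons use the same Nrf2 siRNA arrays. In bulk RNA, fewer cells expressing a gene and less RNA per cell cannot be told apart.

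**Figure D1:**
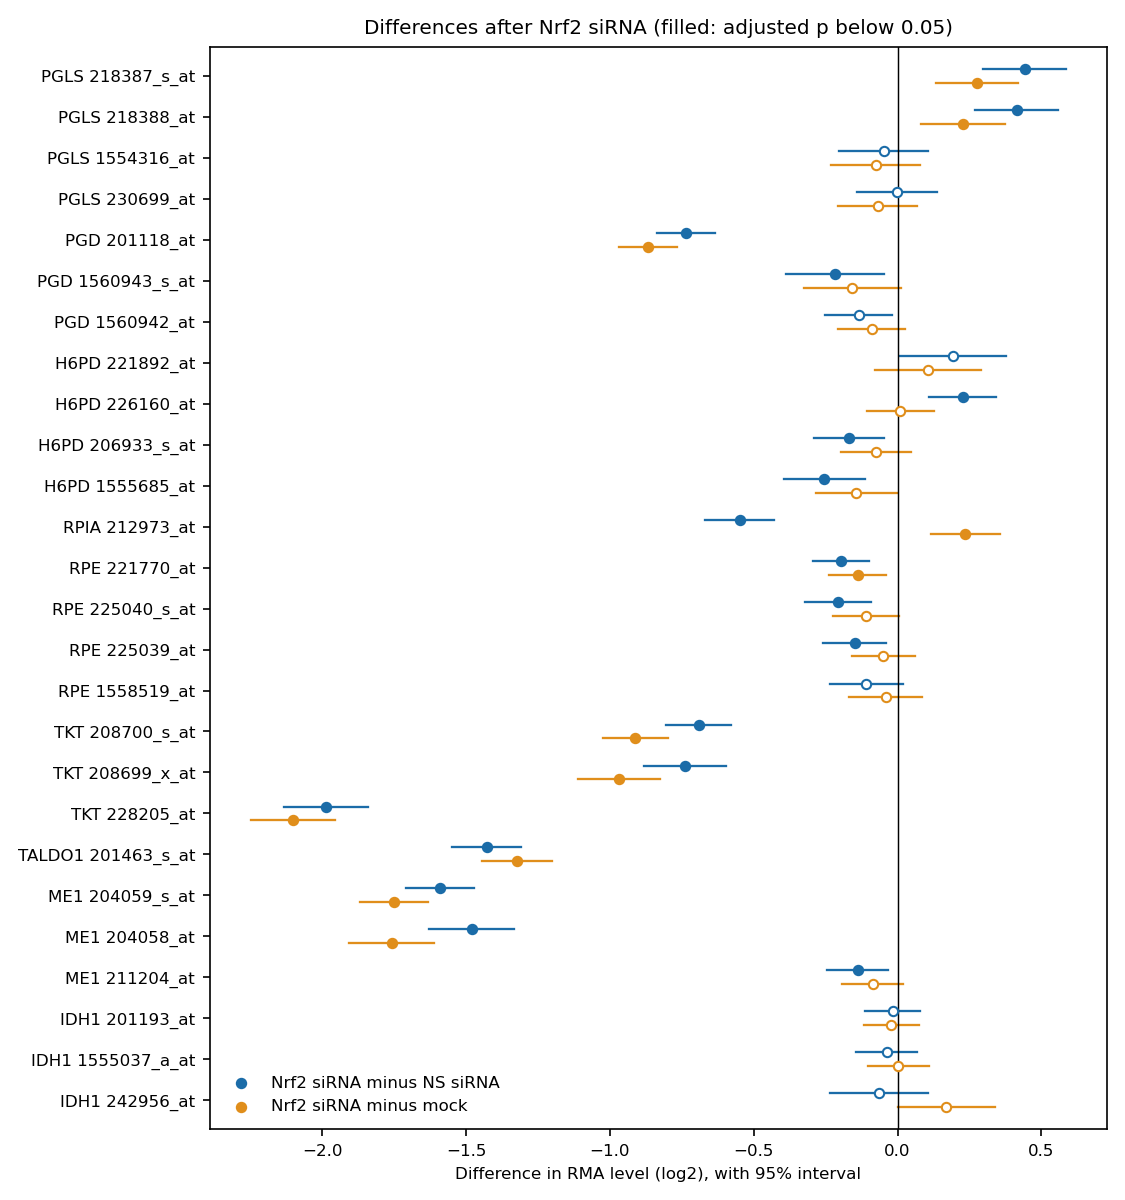
Difference in RMA level (log2, x axis) of Nrf2 siRNA minus NS siRNA (blue) and of Nrf2 siRNA minus mock (orange) for each of the 26 member probe sets (rows), with the 95% interval of the limma fit over 9 arrays as a line. Filled points passed an adjusted p of 0.05. TKT 228205_at, ME1 204059_s_at and 204058_at, and TALDO1 reach furthest to the left, and RPIA lies on opposite sides of 0 in the 2 comparisons.

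Because NRF2 acts through a known motif, promoter letters are shown for the members that hold its core and for TALDO1, which fell and does not. All 9 members had a start-site window in the RefSeq table (GRCh38.p14), 10 windows in all, since IDH1 had 2, each reaching from 250 bases before the start to 50 after it. The core of the antioxidant response element was searched as TGACNNNGC on both strands. It was found in windows of 4 members, ME1, PGD, RPE and IDH1, and in 13.3% of all 35116 windows in the table. ME1 held it in 2 places, and the upstream one overlapped an AP-1 site (TGACTCA), which 4.95% of all windows hold. In the lines that follow, capitals mark the core, which is printed as its reverse complement where it lies on the opposite strand. The 250 bases before the ME1 start (chr6:83431052-83431301, minus strand) hold it 137 bases before the start.
ME1 upstream: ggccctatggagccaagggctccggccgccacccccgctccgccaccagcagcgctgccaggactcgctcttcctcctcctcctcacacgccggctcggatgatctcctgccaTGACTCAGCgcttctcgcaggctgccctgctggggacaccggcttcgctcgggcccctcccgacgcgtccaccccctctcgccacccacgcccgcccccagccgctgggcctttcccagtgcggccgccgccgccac
The downstream copy in ME1, 12 bases after the start on the opposite strand (chr6:83431022-83431050), the copies in PGD (chr1:10398853-10398881, plus strand) and RPE (chr2:210002477-210002505, plus strand), and the one in IDH1 (chr2:208255196-208255224, minus strand) read as follows with 10 bases on each side.
ME1 downstream: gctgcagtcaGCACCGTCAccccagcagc
PGD: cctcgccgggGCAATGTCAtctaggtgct
RPE: ggcggacggcTGACAGCGCcccaccccag
IDH1: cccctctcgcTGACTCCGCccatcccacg
TALDO1, which also fell by more than 1 log2 unit, had no such letters in its window, and its 250 upstream bases (chr11:747214-747463, plus strand) are given for comparison.
TALDO1 upstream: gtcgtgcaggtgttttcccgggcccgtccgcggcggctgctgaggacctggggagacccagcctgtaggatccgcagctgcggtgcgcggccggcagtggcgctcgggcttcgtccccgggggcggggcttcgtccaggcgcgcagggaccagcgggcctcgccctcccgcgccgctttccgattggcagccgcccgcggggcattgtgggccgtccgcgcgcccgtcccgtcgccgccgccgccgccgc
The core was present in a window of IDH1, whose level passed no test of Nrf2 siRNA against either control. It was not found in the windows of TALDO1 and TKT, which fell. Bases outside the windows were not searched. A match is a description of letters and not a measured site.

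The oxidative arm was read through PGLS, PGD and H6PD. PGLS, the lactonase that opens 6-phosphogluconolactone, was the 1 member called higher against both controls. Its brightest probe set (218387_s_at) stood at 11.43, 11.58 and 11.35 in Nrf2 siRNA, 11.03, 11.09 and 10.92 in NS siRNA, and 11.13, 11.25 and 11.16 in mock. All 3 Nrf2 siRNA arrays lay above the 6 control arrays. The rise was 0.44 ± 0.07 (SE, log2) against NS siRNA, a factor of 1.36 (limma adjusted p = 0.000133), and 0.28 ± 0.07 against mock (adjusted p = 0.00686). The other bright PGLS probe set (218388_at) rose by 0.41 and 0.23 (adjusted p = 0.000245 and 0.0215), although its call against mock was lost without Nrf2 siRNA replicate 2 or mock replicate 1 or 3 (adjusted p = 0.0745, 0.0944 and 0.0959). The 2 dimmer PGLS probe sets (1554316_at and 230699_at, at 7.79 and 6.53 in Nrf2 siRNA) passed neither test, with differences between -0.08 and -0.0023. In all, 11.7% of all probe sets were called higher against both controls, against 2 of the 26 here.

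PGD, 6-phosphogluconate dehydrogenase, makes NADPH and ribulose 5-phosphate. Its bright probe set (201118_at) read 13.01, 13.09 and 13.13 in Nrf2 siRNA, 13.81 on all 3 NS siRNA arrays, and 13.95, 13.96 and 13.92 in mock. The Nrf2 siRNA arrays lay below both controls, and NS siRNA below mock without overlap. NS siRNA minus mock was -0.13 and was not called (adjusted p = 0.0555). PGD fell to 60.1% of the level in NS siRNA (-0.74 ± 0.05 SE, adjusted p = 6.35e-08) and to 54.8% of that in mock (-0.87 ± 0.05, adjusted p = 3.08e-08). This probe set is brighter than 99.3% of the array, and whether the scale is compressed there was not tested. The dimmer 1560943_s_at differed by -0.22 from NS siRNA (adjusted p = 0.04) and by -0.16 from mock (adjusted p = 0.163), and its call was lost on leaving out Nrf2 siRNA replicate 2 or 3, NS siRNA replicate 1 or 3 or any mock array (adjusted p = 0.0519 to 0.163), and with equal array medians, quantile normalization or only the compared groups (0.064, 0.0727 and 0.0729). The third probe set (1560942_at) differed by -0.13 and -0.09 and passed neither test (adjusted p = 0.0615 and 0.254).

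H6PD encodes the enzyme that runs the first oxidative steps inside the endoplasmic reticulum, where it supplies NADPH to that compartment. Of its 4 probe sets, 1 was called higher than NS siRNA, 2 were called lower and 1 was not called. In Nrf2 siRNA 226160_at read 8.76, 8.62 and 8.65, in NS siRNA 8.40, 8.46 and 8.49, and in mock 8.73, 8.62 and 8.65. Nrf2 siRNA was above NS siRNA without overlap (0.23 ± 0.05 SE, adjusted p = 0.00452) and spread over the same range as mock (0.01, 95% interval -0.11 to 0.13). In the other direction, 1555685_at was 0.26 lower than in NS siRNA (adjusted p = 0.00643) and 206933_s_at 0.17 lower (adjusted p = 0.0296, and 0.0688 to 0.111 without Nrf2 siRNA replicate 1 or 3 or NS siRNA replicate 2 or 3, and 0.0726 with equal array medians), while 221892_at differed by 0.19 (adjusted p = 0.0894). Against mock none of the 4 passed, although 1555685_at did in 1 alternative to the main fit (adjusted p = 0.0463). The change of 226160_at relative to 1555685_at within each array, a comparison chosen after the values were seen, was 0.32 higher in 3 Nrf2 siRNA arrays than in 6 control arrays and did not pass a two-sided exact permutation test (p = 0.0714; the smallest possible is 0.0238).

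RPIA and RPE convert ribulose 5-phosphate to ribose 5-phosphate and xylulose 5-phosphate. RPIA, the isomerase that opens the way to nucleotide synthesis, was the member in which the controls differed most. Its only probe set (212973_at) stood at 10.56, 10.54 and 10.38 in Nrf2 siRNA, 11.06, 11.05 and 11.01 in NS siRNA, and 10.27, 10.28 and 10.22 in mock. The 3 groups did not overlap, and Nrf2 siRNA lay between the controls. It was 0.55 ± 0.05 (SE) lower than NS siRNA (adjusted p = 3.64e-06) and 0.24 ± 0.05 higher than mock (adjusted p = 0.00547). NS siRNA itself was 0.78 ± 0.05 above mock, a factor of 1.72 (adjusted p = 4.48e-07). The direction for RPIA therefore depends on the control.

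RPE, the epimerase, showed small falls. Its brightest probe set (221770_at) read 11.37, 11.31 and 11.35 in Nrf2 siRNA, 11.57, 11.52 and 11.53 in NS siRNA, and 11.52, 11.46 and 11.46 in mock. The Nrf2 siRNA arrays were below all 6 controls, by 0.20 ± 0.04 (SE) against NS siRNA (adjusted p = 0.00329) and by 0.14 ± 0.04 against mock (adjusted p = 0.0353). The call against mock was lost without Nrf2 siRNA replicate 2 or 3 or without any 1 mock array (adjusted p = 0.0544 to 0.136), and with only the compared groups (0.0562). Against NS siRNA 225040_s_at and 225039_at were 0.21 and 0.15 lower (adjusted p = 0.00663 and 0.03) and against mock neither passed. The call of 225039_at was lost without Nrf2 siRNA replicate 1 or 3 or NS siRNA replicate 1 or 2 (adjusted p = 0.0687 to 0.0964), with equal array medians (0.0896) and with only the compared groups (0.0515). The fourth, 1558519_at, lay near the floor of the array at 4.06 in Nrf2 siRNA, 4.17 in NS siRNA and 4.10 in mock. RPE has a near-identical relative, RPEL1, so its probe sets may read both, and 1 probe set annotated to both genes was not used.

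**Figure D2:**
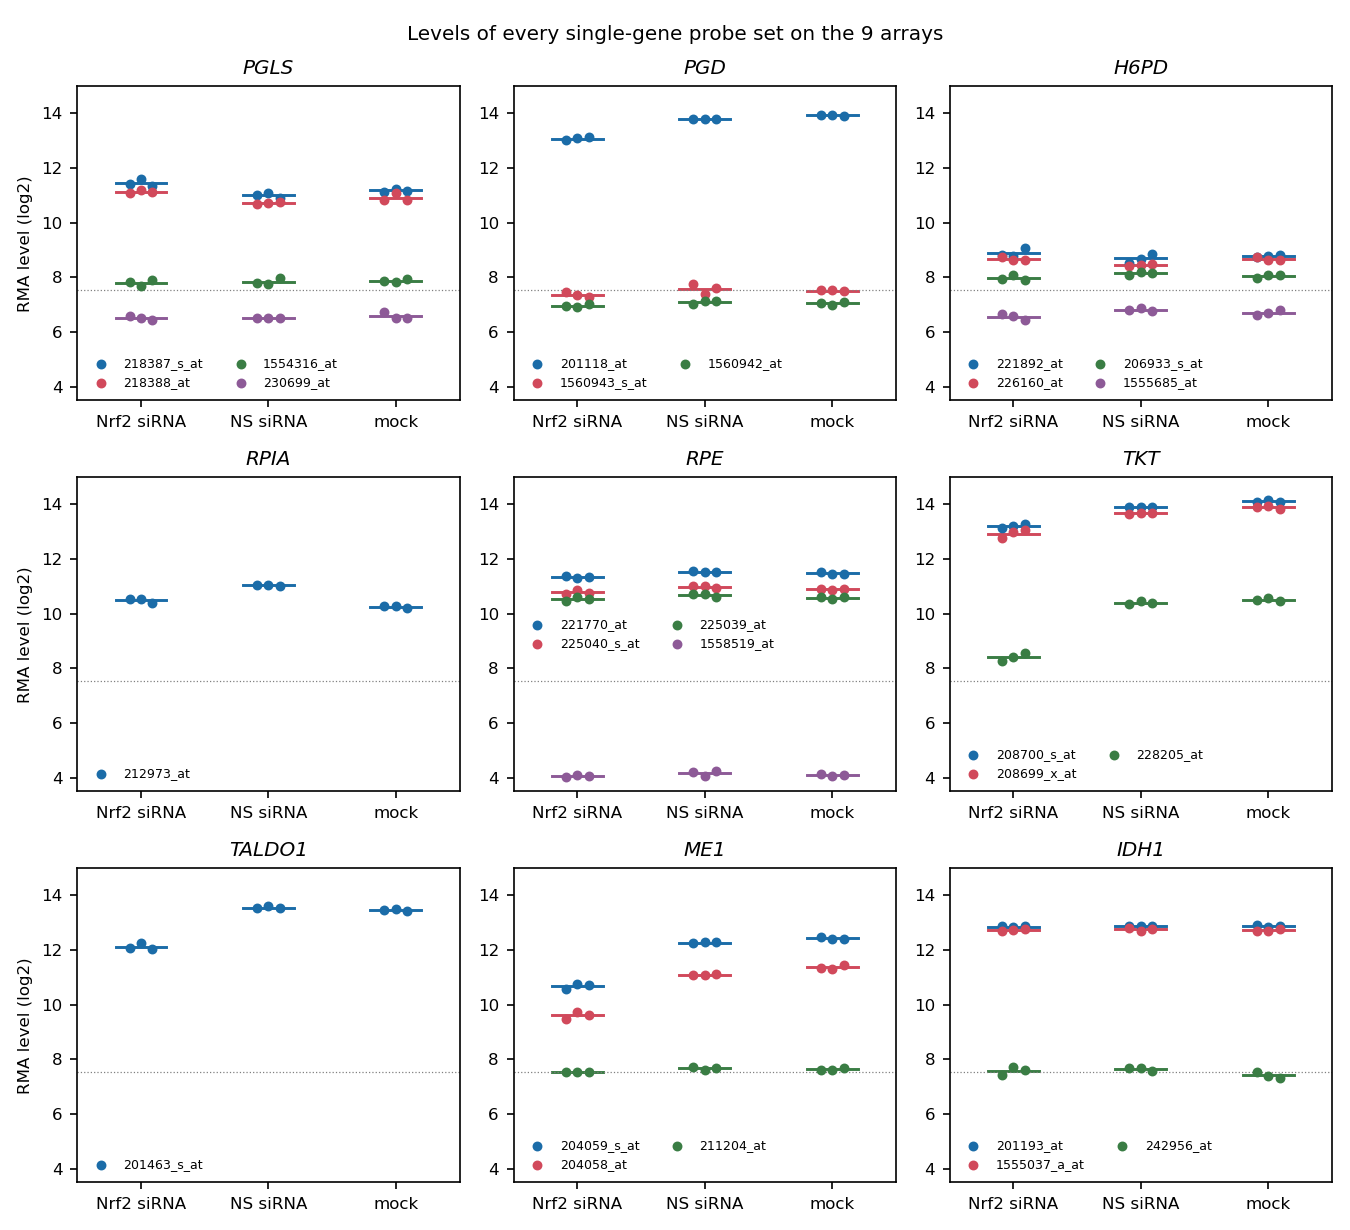
RMA level (log2, y axis) of each member probe set on each array, in Nrf2 siRNA, NS siRNA and mock (left to right), with a panel for each gene; points are arrays, bars are means of 3 arrays, colours are probe sets and the dotted line is the median of all probe sets (7.54). The Nrf2 siRNA points of TALDO1, ME1, TKT and the bright PGD probe set lie below all control points, while those of the bright IDH1 probe sets overlap them.

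The non-oxidative arm is carried by TKT and TALDO1. TKT, transketolase, moves 2-carbon units between sugar phosphates, and all 3 of its probe sets fell against both controls. The brightest (208700_s_at) read 13.12, 13.22 and 13.28 in Nrf2 siRNA, 13.89, 13.91 and 13.90 in NS siRNA, and 14.10, 14.17 and 14.08 in mock. Nrf2 siRNA was lowest and mock highest, with no overlap between any pair of groups. The fall was 0.69 ± 0.05 (SE) against NS siRNA (adjusted p = 2.91e-07) and 0.91 ± 0.05 against mock (adjusted p = 5.17e-08). The probe set 208699_x_at, whose suffix marks probes that may match other transcripts, fell by 0.74 and 0.97.

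The less bright TKT probe set (228205_at) changed most of all 26. It read 8.26, 8.42 and 8.55 in Nrf2 siRNA, 10.37, 10.45 and 10.38 in NS siRNA, and 10.51, 10.57 and 10.47 in mock. These values put TKT at 25.2% of NS siRNA (-1.99 ± 0.07 SE, adjusted p = 2.63e-10) and at 23.3% of mock (-2.10 ± 0.07, adjusted p = 3.82e-10), where the brightest probe set gave 61.9% and 53.1%. The gap between both probe sets within an array (228205_at minus 208700_s_at) was -4.85 to -4.73 in Nrf2 siRNA and -3.61 to -3.45 in the 6 controls, a difference of -1.24 (two-sided exact permutation test, 3 against 6 arrays, p = 0.0238, the smallest possible; 0.0476 adjusted over the 2 pairs tested, chosen after the values were seen). The 3 probe sets thus gave the same direction and different sizes. Whether brightness or the part of the transcript read sets the difference was not tested.

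TALDO1, transaldolase, moves 3-carbon units and closes the link to glycolysis. Its only probe set (201463_s_at) read 12.09, 12.24 and 12.05 in Nrf2 siRNA, 13.54, 13.59 and 13.53 in NS siRNA, and 13.46, 13.48 and 13.41 in mock. The Nrf2 siRNA arrays lay more than 1 log2 unit below every control array. TALDO1 fell to 37.1% of NS siRNA (-1.43 ± 0.06 SE, adjusted p = 8.18e-10) and to 39.9% of mock (-1.32 ± 0.06, adjusted p = 3.38e-09). NS siRNA minus mock was 0.11 ± 0.06 (adjusted p = 0.202). The probe set is brighter than 98.8% of the array, and whether that compresses the fall was not tested.

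ME1 and IDH1 make NADPH in the cytosol outside the pathway. ME1, the malic enzyme that turns malate into pyruvate, fell in both of its bright probe sets. In 204059_s_at it read 10.57, 10.75 and 10.71 in Nrf2 siRNA, 12.25, 12.28 and 12.28 in NS siRNA, and 12.48, 12.41 and 12.39 in mock. No array of Nrf2 siRNA came near a control. ME1 fell to 33.2% of NS siRNA (-1.59 ± 0.05 SE, adjusted p = 2.75e-10) and to 29.7% of mock (-1.75 ± 0.05, adjusted p = 3e-10). The other bright probe set (204058_at) gave 35.8% and 29.5%. NS siRNA was itself below mock in both, by 0.16 and 0.28 (adjusted p = 0.0471 and 0.00841). The dim probe set 211204_at differed by only -0.14 from NS siRNA (adjusted p = 0.0377) and -0.09 from mock (adjusted p = 0.226), and its call was lost without any Nrf2 siRNA array, NS siRNA replicate 1 or 3 or mock replicate 1 (adjusted p = 0.0505 to 0.122), and with equal array medians, quantile normalization or a variance trend (0.0947, 0.0644 and 0.063). In that probe set the Nrf2 siRNA arrays, at 7.54, 7.55 and 7.55, still lay below all 6 controls (7.60 to 7.73).

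IDH1, the isocitrate dehydrogenase of cytosol and peroxisomes, passed no test of Nrf2 siRNA against either control in any of its 3 probe sets. Its brightest probe set (201193_at) read 12.87, 12.82 and 12.87 in Nrf2 siRNA, 12.88, 12.87 and 12.88 in NS siRNA, and 12.91, 12.83 and 12.89 in mock. The groups overlapped, and the difference from NS siRNA was -0.02 with a 95% interval of -0.11 to 0.08. Against mock it was also -0.02, with an interval of -0.12 to 0.08. The second (1555037_a_at) differed by -0.04 from NS siRNA (95% interval -0.14 to 0.07). The dim 242956_at differed by -0.06 from NS siRNA and 0.17 from mock (adjusted p = 0.547 and 0.135). In 1 alternative to the main fit its difference from mock was called (adjusted p = 0.0271). The bright IDH1 probe sets exceed 98.5% and 98.3% of the array, and whether their scale is compressed was not tested.

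Seen over both controls, 8 of the 26 probe sets, from ME1, TKT, TALDO1, PGD and RPE, were lower against each, where 9.58% of all probe sets were. The 3 Nrf2 siRNA arrays lay below all 6 control arrays for 9 member probe sets and above them for 2, where 14% and 14.3% of all probe sets did so. In the plot of difference against level, the bright ME1 probe sets, TALDO1, TKT and the bright PGD probe set lay below the 5th percentile of probe sets of their own level.

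**Figure D3:**
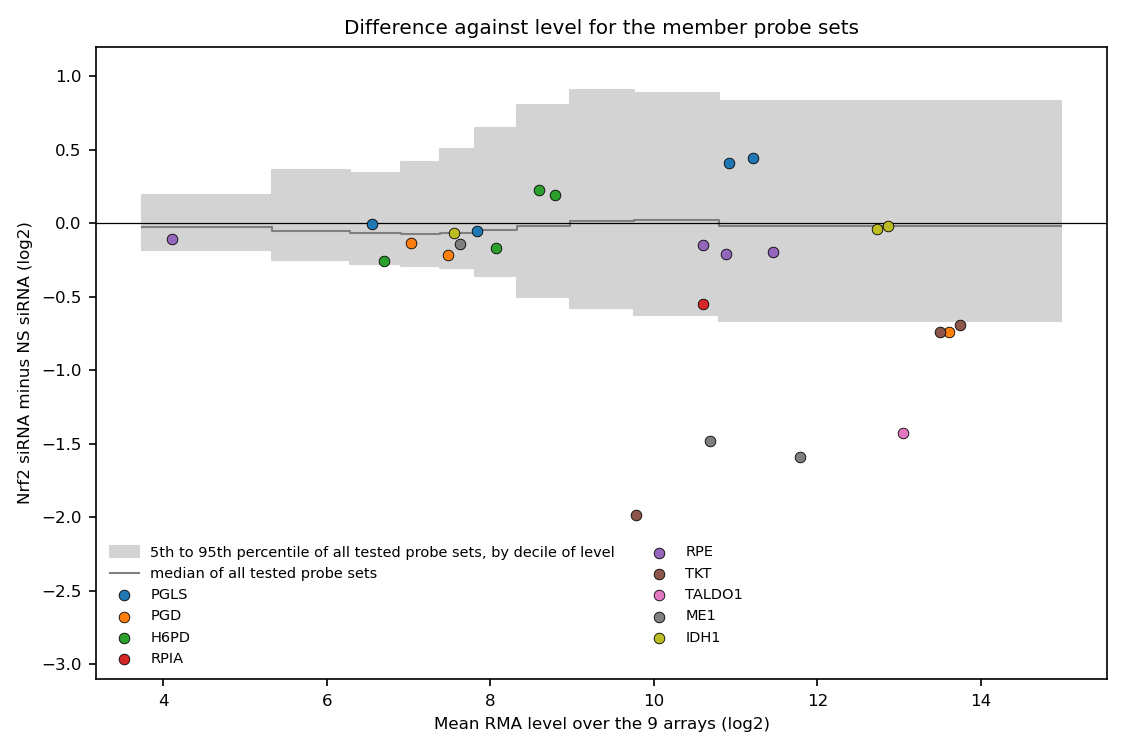
Difference of Nrf2 siRNA minus NS siRNA (log2, y axis) against the mean RMA level over 9 arrays (log2, x axis) for the 26 member probe sets, coloured by gene; the grey band spans the 5th to 95th percentile of all 41091 probe sets in each decile of level. In the brightest decile the band runs from -0.66 to 0.83, and the 7 points that fell by 1.5-fold or more lie under the band of their own decile.

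NS siRNA against mock compared the siRNA control with the reagent control. Of the 26 probe sets 5 were lower and 2 higher in NS siRNA, where 13.5% and 12.4% of all probe sets were, 25.9% together. The lower ones belonged to TKT (208700_s_at at -0.22 and 208699_x_at at -0.23), ME1 (-0.16 and -0.28) and H6PD (226160_at at -0.22). The higher ones were RPIA and the dim IDH1 probe set 242956_at (0.23, adjusted p = 0.0448). A change of 1.5-fold or more was called for RPIA and for no lower member, where 2.61% of all probe sets were that much lower and 0.908% higher. The calls of TKT 208699_x_at (without NS siRNA replicate 1 or 2 or mock replicate 1 or 2), ME1 204059_s_at (without Nrf2 siRNA replicate 3 or any control array) and IDH1 242956_at (without Nrf2 siRNA replicate 3, any NS siRNA array or mock replicate 2 or 3) were lost, at adjusted p up to 0.0754, 0.164 and 0.161. With quantile normalization those of ME1 204059_s_at (0.0819) and IDH1 242956_at (0.0835) were lost too, and the second also with equal array medians (0.0869). For the bright probe sets of TKT, ME1 and PGD the NS siRNA mean lay between those of Nrf2 siRNA and mock, although for PGD NS siRNA against mock was not called.

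Of 10 further genes listed for pentose and ribose phosphate metabolism 9 were measured, by 15 probe sets, of which 8 were lower than NS siRNA and 2 higher. As for all the lists that follow, the shares over all probe sets were 21.5% lower and 20.2% higher against NS siRNA, and 13.3% and 15.2% against mock. Against mock 4 were lower and 0 higher, and the 4 belonged to SHPK, sedoheptulokinase (-0.42 against NS siRNA and -0.26 against mock), DERA, the deoxyribose phosphate aldolase (-0.35 and -0.25), and PRPS1, which makes the nucleotide precursor PRPP (-0.17 and -0.28 in 209440_at). None of the 9 reached 1.5-fold against both controls. TIGAR, a phosphatase that slows glycolysis, was 0.34 lower than NS siRNA and differed by 0.06 from mock. TKTL1 and TKTL2, relatives of TKT, lay below the array median. The ribokinase gene RBKS was 0.38 lower than NS siRNA and differed by 0.02 from mock in its brightest probe set.

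Of the 39 probe sets of 12 other genes that supply NADPH or make NADP, 17 were lower and 7 higher against NS siRNA, and 14 were lower and 4 higher against mock. NADK, the cytosolic NAD kinase that makes NADP, was lower against both controls in 5 of 6 probe sets, at -0.39 and -0.36 in the brightest. MTHFD2, a mitochondrial folate dehydrogenase, was at -0.61 and -0.24 in its brightest probe set, and the mitochondrial isocitrate dehydrogenase IDH2 at -0.33 and -0.38. NNT, the mitochondrial transhydrogenase, was higher by 0.68 and 0.17 in its brightest probe set, where NS siRNA was itself -0.51 from mock. The glutamate dehydrogenase GLUD1 was higher by 0.33 and 0.29 in its brightest. ME2, the mitochondrial malic enzyme, differed by -0.07 from NS siRNA (not called) and by -0.14 from mock (called). None of the 12 reached 1.5-fold against both controls.

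Of 9 listed enzymes that spend NADPH 8 were measured, by 14 probe sets, of which 10 were lower and 0 higher against each control, with a median of -0.71 against NS siRNA and -0.86 against mock. The 5 genes called 1.5-fold or more lower against both included GSR, glutathione reductase (-0.66 and -1.29 in its brightest probe set and -1.16 and -1.59 in 205770_at, where NS siRNA was itself -0.63 and -0.43 from mock). The others were TXNRD1, thioredoxin reductase (-1.72 and -1.50), NQO1, the quinone reductase (-0.88 and -0.93 in its brightest probe set), CBR1, a carbonyl reductase (-0.95 and -1.18), and BLVRB, a biliverdin reductase (-0.76 and -0.79). TXNRD2, the mitochondrial thioredoxin reductase, passed neither test.

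Of the 20 probe sets of 10 glycolytic enzymes that share substrates with the pathway, 9 were lower and 1 higher against NS siRNA, and 13 were lower and 0 higher against mock. PFKP, a phosphofructokinase, fell by 1.13 and 0.85 in its bright probe set. ALDOA, aldolase A, fell by 0.33 and 0.38 in its brightest probe set (214687_x_at), by 0.34 and 0.39 in 200966_x_at, and by 0.63 and 0.64 in the dimmest, 238996_x_at. GPI, which interconverts glucose and fructose 6-phosphate, fell by 0.33 and 0.52, and TPI1 by 0.14 and 0.16. GAPDH uses glyceraldehyde 3-phosphate, an intermediate that TKT and TALDO1 share with glycolysis. GAPDH was not called against NS siRNA in any of its 3 probe sets and was lower than mock in 1 of them (213453_x_at, -0.14, adjusted p = 0.0277). Of the 11 probe sets of 5 NAD-dependent counterparts, 5 were lower and 2 higher against NS siRNA, and 5 were lower and 0 higher against mock. MDH1, the cytosolic malate dehydrogenase, was at -0.13 and -0.17. The probe sets of MDH2, the mitochondrial one, went apart, with 209036_s_at at -0.30 and -0.33. The other, 213333_at, was 0.72 higher than NS siRNA (adjusted p = 4.43e-07) and differed by 0.05 from mock. In 213333_at NS siRNA was itself -0.67 from mock.

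**Figure D4:**
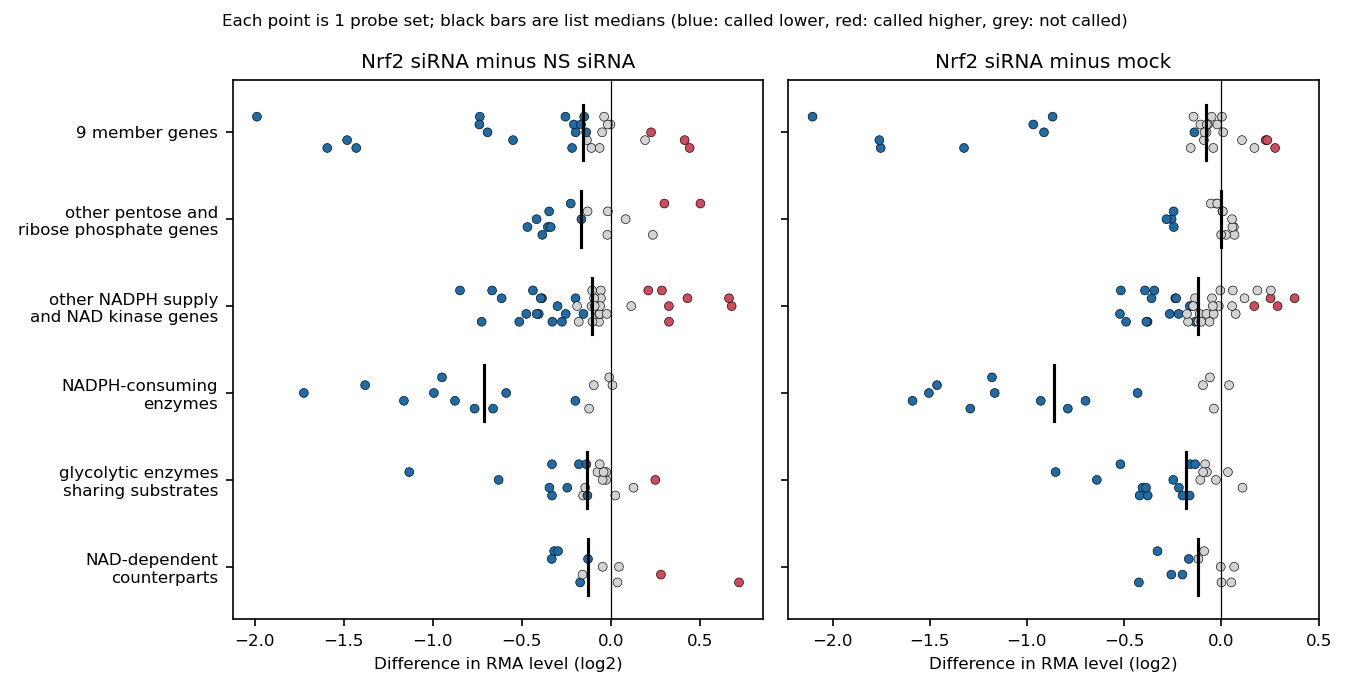
Difference in RMA level (log2, x axis) of Nrf2 siRNA minus NS siRNA (left) and minus mock (right) for every probe set of the 9 members and of 5 other gene lists (rows); blue points were called lower, red higher, grey not called, and black bars are medians. Points beyond -1.2 occur among the members and the NADPH-consuming enzymes; the vertical spread within a row has no meaning.

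The genes most like the 3 members with the largest difference from NS siRNA in their brightest probe set were found by Pearson correlation over the 9 arrays, among 19766 other genes. The closest to ME1 were F2RL2 (r = 0.9992), SLC38A6 (0.9983) and NRCAM (0.9983). For TALDO1 they were GCLM, the modifier subunit of glutamate-cysteine ligase (0.9973), UNKL (0.9970) and PRDX1, a peroxiredoxin (0.9969). For PGD they were the transporters ABCB6 (0.9989) and ABCC1 (0.9972) and the phosphatase G6PC3 (0.9969). These correlations describe patterns over 3 groups of arrays that share their group differences, and they carry no test.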

How the data were processed

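Per the labels' protocols, RNA was extracted with TRIZOL, cleaned with an RNeasy kit and turned into biotinylated cRNA. The deposited log2 values come from RMA, which the submitters' processing notes name; the sources used here give neither its version nor its settings. Each of 9 arrays gave 54675 values, 0 of them missing, and 0 value columns were left unused. Detection calls and scan dates were not used here, so no background test or batch could be examined.

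Probe sets were named through the array's annotation table, with symbols updated by Entrez identifier from a RefSeq table (GRCh38.p14; 41037 of 41091 matched). The 62 control probe sets, 1801 with several genes and 11721 unnamed here stayed out. Some genes are not reported here. A linear model with 3 group means was fitted over the 9 arrays with limma 3.58.1 in R 4.3.3 (lmFit, eBayes, 6 residual degrees of freedom, prior 6.2). Two-sided p-values received a Benjamini-Hochberg adjustment over 41091 probe sets, threshold 0.05. SE and 95% intervals come from the model. The fit was tested on simulated arrays. Permutation tests used SciPy 1.17.1, and figures matplotlib 3.10.9.

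The members and lists were chosen with earlier results of these data known. Named genes were all members, NFE2L2, other listed genes called with the same sign and 1.5-fold or more against both controls, and the 3 closest correlates of 3 members; further listed genes were named after their values were seen. Alternatives were equal array medians, quantile normalization, a filter on dim probe sets, the brightest or mean probe set per gene, an eBayes trend with robust variances, only the compared groups, a replicate block, leaving out each array, and a threshold of 0.01.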

Additional observations from a re-analysis of the deposited data

How the results depend on the processing

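Of 36 calls of member probe sets in the 3 pairwise comparisons, 27 were kept in every alternative that gave the probe set a value, among them those of ME1 (204059_s_at, 204058_at), TKT, TALDO1 and PGD (201118_at) against both controls. A probe set has no value of its own where probe sets of a gene are averaged, and a dim one has none under the level filter or where the brightest is taken. The 9 lost in some alternative were of 0.23 log2 or less. The count lower against both controls was 7 to 9 without each array in turn, 5 of 9 genes by the brightest probe set and 4 of 9 by averaging the probe sets of each gene. Matching counts over all probe sets or genes were not computed for these alternatives. Taking the brightest probe set, 9422 of 19775 genes were called against NS siRNA, 6530 against mock, 6082 for NS siRNA against mock and 8589 against the mean of both controls, with 7, 7, 4 and 7 of the 9 members; after averaging the probe sets these were 9480, 6401, 5807 and 8563 genes and 7, 5, 4 and 7 members. Those settings test fewer features. At a threshold of 0.01, 4 member probe sets and 7174 of all 41091 were called for NS siRNA against mock. For that comparison, leaving out arrays gave 4 to 8 member probe sets and 8827 to 10912 of all. An eBayes trend with robust variances gave 10 and 11311. With equal array medians 11 member probe sets were lower and 4 higher than NS siRNA, where 7284 and 8776 of all 41091 probe sets were.

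Deviations of same-numbered arrays correlated at -0.174 to 0.186, and those of differently numbered arrays at -0.285 to 0.145. These ranges overlap and do not decide whether replicate numbers pair the samples. With the replicate block 19 member probe sets were called against NS siRNA (18 without it), 11 against mock and 7 for NS siRNA against mock. Of all probe sets 17508, 12046 and 10993 were called with the block, and 17148, 11744 and 10648 without it. For NS siRNA against mock the block ended the calls of IDH1 242956_at (adjusted p = 0.0567) and ME1 204059_s_at (adjusted p = 0.0618) and added PGLS 218387_s_at and 218388_at (adjusted p = 0.0305 and 0.0384). Against NS siRNA it added H6PD 221892_at (adjusted p = 0.0245).

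The other lost calls stand beside their values in the report. Some alternatives also added calls. Against mock, IDH1 242956_at, H6PD 1555685_at and RPE 225040_s_at were each called in 1 (adjusted p = 0.0271, 0.0463 and 0.0473). Against NS siRNA, H6PD 221892_at was called in 3, PGD 1560942_at in 2 and RPE 1558519_at in 1. For NS siRNA against mock, PGD 201118_at was called in 6, PGLS 218388_at in 5 and PGLS 218387_s_at in 2. The signs that turned belonged to differences that were not called in either setting. With equal array medians and with quantile normalization, IDH1 201193_at was at 0.0049 and 0.0057 and PGLS 230699_at at 0.020 and 0.027 against NS siRNA, and with quantile normalization H6PD 226160_at was at -0.013 against mock. Without each array in turn, against NS siRNA, PGLS 1554316_at ran between -0.10 and 0.021, PGLS 230699_at between -0.041 and 0.038 and IDH1 242956_at between -0.13 and 0.016. Against mock, IDH1 1555037_a_at ran between -0.015 and 0.025, H6PD 226160_at between -0.033 and 0.041 and PGLS 230699_at between -0.11 and 0.00021. For NS siRNA against mock, PGLS 1554316_at ran between -0.097 and 0.0095, PGD 1560943_s_at between -0.021 and 0.15, IDH1 201193_at between -0.027 and 0.012 and PGLS 230699_at between -0.10 and 0.0025. The cause was not tested. The fit on the compared groups alone gives no value for the mean of both controls.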
